A study of Homo sapiens with 21 samples.

Results

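NEAT1 and MALAT1 are neighbouring genes for long noncoding RNAs (lncRNAs) that stay in the nucleus. They were chosen by name, and they are 2 of the 58735 genes in the deposited expression table. NEAT1 (ENSG00000245532) lies on chromosome 11 at 65422774 to 65445540 on the plus strand of GRCh38, with a listed length of 22767 bases. MALAT1 (ENSG00000251562) lies downstream on the same strand at 65497688 to 65506516, with a listed length of 8829 bases, and 52147 bases separate the pair.

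The study asked how calcium, cadmium and ligands of the estrogen-related receptor ESRRB change gene expression in MDA-MB-453, a human breast cancer cell line. The 21 RNA-seq libraries form 7 groups of 3: control, calcium (10 mM), cadmium (10 μM), the ESRRB agonist GSK4716 (5 μM), the ESRRB antagonist DES (diethylstilbestrol, 10 μM), and DES combined with either metal. All cells carried the genotype given as WT, and treatment lasted 24 h. In the combinations DES came 3 h before the metal, and a longer time with DES cannot be told apart from the metal there. Nothing in the labels ties the 3 libraries of a group to separate cultures, so p-values measure the spread between these libraries, which may be technical. Calcium and GSK4716 were given without serum, while the cadmium medium kept a little charcoal-stripped serum. The labels name a single control group, so an effect of the medium cannot be told apart from that of at least 1 of the treatments. GSK4716 and DES were dissolved in ethanol, and the sources used here do not say whether the control received it.

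NEAT1 RNA is the scaffold of paraspeckles, nuclear bodies that form around its long transcript when proteins such as NONO and SFPQ coat it, and it is known to rise under many kinds of cell stress. Its short transcript shares the start of the long one, ends at an ordinary poly-A site and does not build paraspeckles by itself. MALAT1 is among the most abundant lncRNAs of mammalian cells and gathers in nuclear speckles, where splicing factors are stored.

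The long NEAT1 transcript and MALAT1 do not end in an added poly-A tail. RNase P cuts each before a tRNA-like element, and a stretch rich in A folds back into a triple helix that protects the new end. The libraries were made from RNA captured on poly-T beads, so the bases at these ends are shown for both genes, with a run of A inside the long NEAT1 transcript. Capitals mark the longest run of A before the element in the first 2 sequences and the longest run of A in the gene in the third.
NEAT1 end and tRNA-like element, chr11:65445511-65445598: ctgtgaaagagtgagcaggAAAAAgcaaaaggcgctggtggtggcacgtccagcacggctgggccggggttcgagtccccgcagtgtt
MALAT1 end and tRNA-like element, chr11:65506087-65506173: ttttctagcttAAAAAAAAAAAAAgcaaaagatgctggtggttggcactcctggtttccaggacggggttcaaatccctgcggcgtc
NEAT1 internal run of A, chr11:65440823-65440884: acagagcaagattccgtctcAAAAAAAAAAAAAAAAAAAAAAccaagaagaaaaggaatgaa

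All 3 are read 5′ to 3′ from the plus strand of GRCh38. Before the element, MALAT1 has a run of 13 A and NEAT1 a longest run of 5. The tRNA-like elements, of 58 bases in NEAT1 and 57 in MALAT1, were identical at 40 of 59 aligned columns (67.8%). In the annotation of the table the NEAT1 gene ends at the base before its element, while the MALAT1 gene runs 400 bases past the start of its own. The longest run of A in NEAT1, 22 bases, starts 18070 bases into the gene, which only the long transcript covers. GENCODE 44 lists 9 transcripts of NEAT1, of which 1 is long (22743 bases) and the other 8 end near the start of the gene, the shortest at 512 bases. How far poly-T capture at these runs sets the levels below was not tested.

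Fragments recovered on genes from the FPKM values numbered 14435925 to 28424805 in a library (median 18314738). Over all libraries NEAT1 held 332744 of them and MALAT1 held 368259, so counting error is small beside the spread between libraries. Of the markers of a luminal line ERBB2, KRT8, KRT18, KRT19, FOXA1, GATA3 and EPCAM, the lowest group mean was 65.3 FPKM, for FOXA1. VIM, PTPRC, PECAM1 and ESR1 stayed at or under a group mean of 0.0772 FPKM, while COL1A1 had group means of 10.5 to 20.6 FPKM. Replicate 1 of DES with cadmium stands apart: the library size behind its FPKM was 0.693 times its fragments on genes, the lowest ratio of all, and it had 15577 genes with over 3 fragments, the fewest of all. It also held the lowest level of both lncRNAs in the series, so results of that group are given with and without it.

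NEAT1 was higher with calcium than in the control. FPKM, which scales fragments by gene length and library size, was 15.0, 12.5 and 13.9 for NEAT1 in the control libraries and 51.3, 81.9 and 48.2 with calcium. All 3 calcium libraries lay above all 3 control libraries, as was the case for 16.0% of the genes tested. The group means were 13.8 ± 1.23 FPKM (SD, n = 3) and 60.4 ± 18.6 FPKM (SD, n = 3). NEAT1 rose by a log2 fold change of 2.08 (SE 0.22), or 4.23-fold on the log2(FPKM + 0.1) scale, with an adjusted p of 0.0109 (limma, Benjamini-Hochberg over 14686 genes), in a comparison where 4.60% of genes were called higher. Its place among the 7629 listed long intergenic noncoding RNAs (lincRNAs) went from 12th or 13th in the control to between 2nd and 4th with calcium. In these bulk libraries, more RNA per cell and more cells that express the gene cannot be told apart. Without control replicate 1 or without control replicate 2 the adjusted p was 0.0564 and 0.0597, with log2 fold changes of 2.14 and 2.01, and without the filter on low values it was 0.0821.

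DES by itself was followed by a NEAT1 level near that seen with calcium. NEAT1 was 33.8, 72.9 and 69.3 FPKM in the DES libraries, a mean of 58.7 ± 21.6 FPKM (SD, n = 3). Replicate 1 was the lowest of them, and it still lay above every control library, an order shared by 25.9% of genes. NEAT1 rose by 2.00 on the log2 scale (SE 0.30), with an adjusted p of 0.00481 (limma), where 16.7% of all genes were called higher. The call held when any of the 6 libraries was left out, with log2 fold changes from 1.80 to 2.36, and was lost without the filter on low values (adjusted p 0.0555). The mitochondrial share of fragments was 7.70 to 8.19% in the control, 3.47 to 4.96% with DES and 4.88 to 7.55% with calcium, so it did not overlap with the control in either, and its part in the NEAT1 values was not tested. This comparison and that of calcium share the control libraries.

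**Figure D1:**
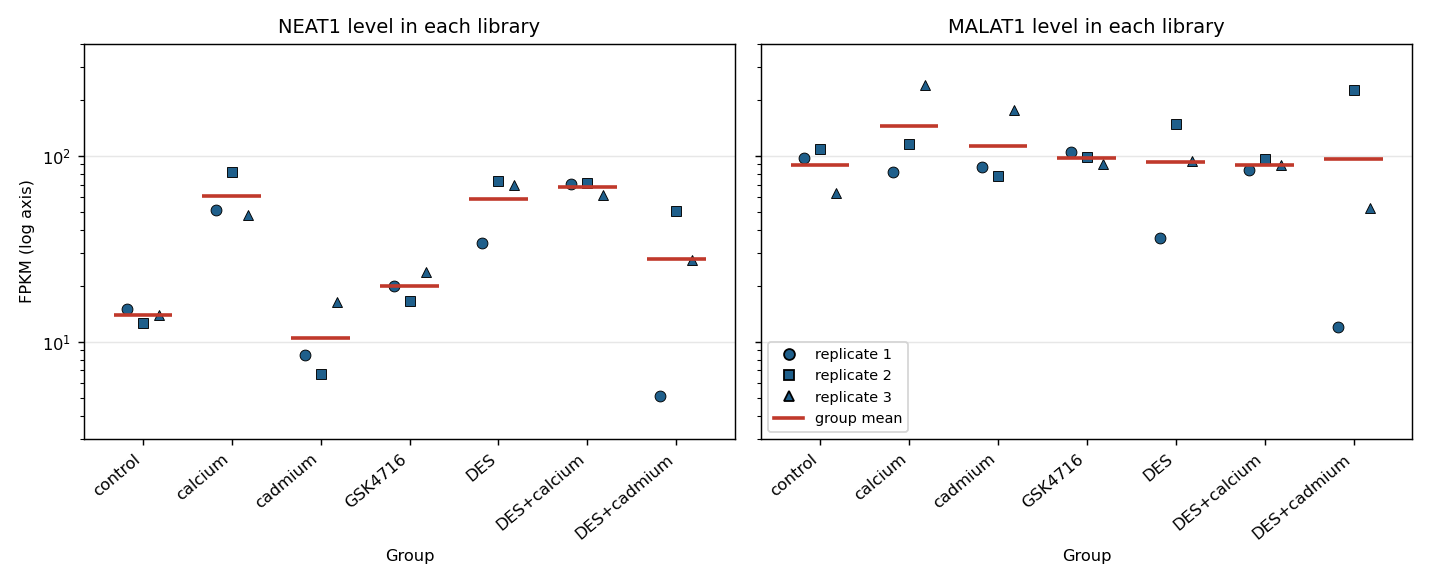
NEAT1 (left) and MALAT1 (right) in FPKM on a log axis for each of the 21 libraries by group, with symbols for the replicate number and a red line at the group mean. NEAT1 lies between 12.5 and 15.0 FPKM in the control and between 48.2 and 81.9 FPKM with calcium, while MALAT1 groups overlap with the control throughout.

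With DES and calcium together NEAT1 was no higher than with either by more than the spread. The libraries held 70.7, 71.8 and 61.7 FPKM (mean 68.0 ± 5.52, SD, n = 3), the highest group mean of the series and its tightest group of NEAT1 on the log2 scale (SD 0.12). Against DES the log2 fold change was 0.29 (SE 0.31, 95% interval -0.46 to 1.04) with an adjusted p of 0.691, in a comparison where 0.136% of genes were called. Against calcium it was 0.21 (SE 0.22, 95% interval -0.32 to 0.74) with an adjusted p of 0.490, where 35.1% of genes were called. Both pairs of groups overlapped, and scaling by quantiles turned the second value to -0.16.

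The effect of calcium on NEAT1 was smaller in the presence of DES than in its absence. The interaction, the calcium effect with DES minus the effect without, was -1.79 on the log2 scale (SE 0.40) with an adjusted p of 0.0342 (limma), in a test that called 3.63% of genes, 2.38% lower and 1.25% higher. The adjusted p rose above 0.05 when any of 10 of the 12 libraries was left out, and held without calcium replicate 3 (0.0373) and without DES replicate 1 (0.00659). With all 7 groups in a single fit, which lets DES with cadmium add to the spread, it was 0.285.

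GSK4716 libraries held 19.9, 16.5 and 23.7 FPKM of NEAT1 (mean 20.03 ± 3.63, SD, n = 3). All 3 lay above the 3 controls, an order that 10.7% of genes shared. Its log2 fold change of 0.52 (SE 0.15) had an unadjusted p of 0.0146 and an adjusted p of 0.206. limma called 0.00% of genes in this comparison, with 2404 genes at an unadjusted p under 0.05, and limma-voom called 49 genes, neither lncRNA among them.

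Cadmium libraries held 8.52, 6.70 and 16.3 FPKM of NEAT1 (mean 10.5 ± 5.12, SD, n = 3), so replicates 1 and 2 lay below the control libraries and replicate 3 above them. Cadmium against control gave -0.49 on the log2 scale (SE 0.33, 95% interval -1.29 to 0.31) with an adjusted p of 0.372, where 0.150% of genes were called. Library weights (arrayWeights), under which replicate 2 of cadmium counted most in its group, gave -1.05 with an adjusted p of 0.00181, and with them 8325 genes were called.

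DES with cadmium had the widest spread of NEAT1, with 5.10, 50.6 and 27.5 FPKM (mean 27.7 ± 22.8, SD, n = 3). Its SD on the log2 scale was 1.70, larger than that of 91.6% of the genes tested in the same group, where the median gene had 0.52. Against DES the log2 fold change was -1.52 (SE 0.83, 95% interval -3.51 to 0.47) with an adjusted p of 0.596, where 0.266% of genes were called. Against cadmium it was 0.97 (SE 0.84, 95% interval -1.03 to 2.97) with an adjusted p of 0.449, where 9.89% of genes were called. Without replicate 1 of DES with cadmium these became -0.57 (adjusted p 0.669) and 1.92 (adjusted p 0.0631), and without replicate 2 they became -2.22 and 0.28. The interaction of DES with cadmium was -1.03 (SE 0.96) with an adjusted p of 0.596, where 1.18% of genes were called, and became -0.08 without replicate 1 and -1.72 without replicate 2 of DES with cadmium.

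In order of its mean, NEAT1 was highest with DES and calcium, then with calcium, DES, DES with cadmium and GSK4716, then in the control, and lowest with cadmium. Among neighbours in this order only GSK4716 and the control did not overlap.

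**Figure D2:**
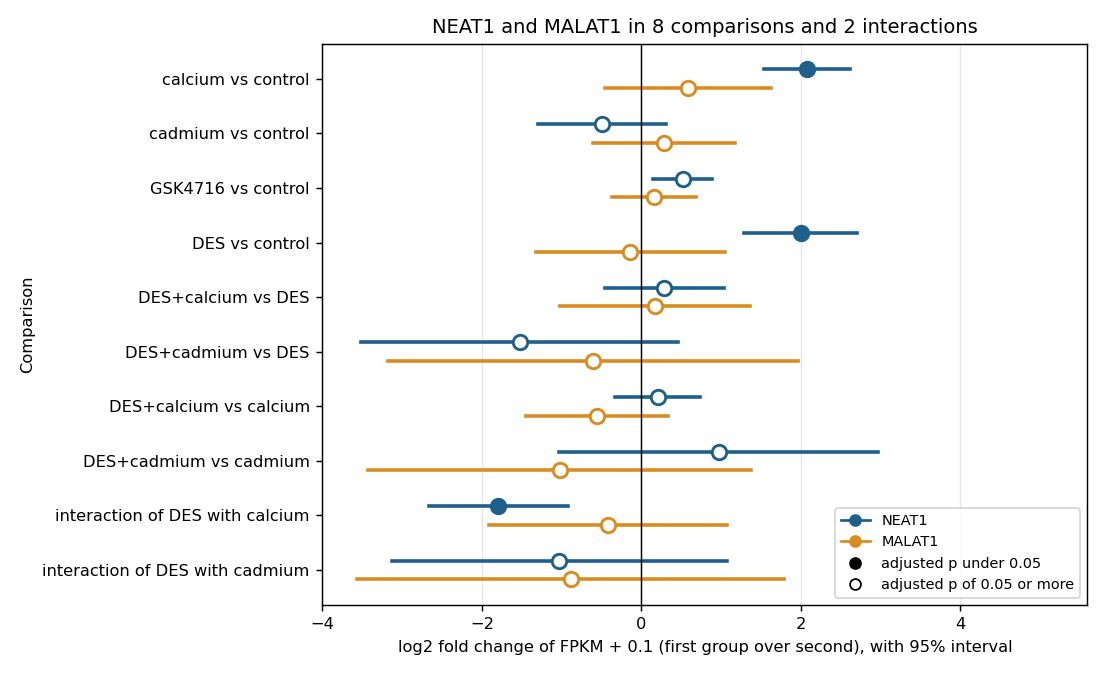
The log2 fold change of NEAT1 (blue) and MALAT1 (orange) in each of 10 comparisons, with 95% intervals and filled symbols where the adjusted p was under 0.05. Filled symbols are those of NEAT1 with calcium (2.08), with DES (2.00) and in the interaction of DES with calcium (-1.79), and no MALAT1 symbol is filled.

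MALAT1 passed the test in none of the 10 comparisons in limma, nor under limma-voom or any of the other settings tried, while its lowest unadjusted p was 0.181. Its control libraries held 97.0, 109 and 62.7 FPKM (mean 89.7 ± 24.1, SD, n = 3). Calcium libraries held 82.1, 116 and 239 FPKM (mean 146 ± 82.7, SD, n = 3). Replicate 3 with calcium was the highest MALAT1 value of all 21 libraries and replicate 1 fell inside the control range. Calcium against control gave a log2 fold change of 0.59 (SE 0.43, 95% interval -0.45 to 1.63) with an adjusted p of 0.473, and from 0.16 (without calcium replicate 3) to 0.93 (without calcium replicate 1) with a library left out.

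DES libraries held 36.0, 147 and 93.8 FPKM of MALAT1 (mean 92.4 ± 55.7, SD, n = 3), on both sides of the control range. DES against control gave -0.14 on the log2 scale (SE 0.50, 95% interval -1.32 to 1.05) with an adjusted p of 0.854. This interval is wide, since the SD of MALAT1 with DES on the log2 scale, 1.04, exceeded that of 90.4% of genes. With cadmium the libraries held 87.0, 78.4 and 176 FPKM (mean 114 ± 53.8, SD, n = 3), a log2 fold change of 0.28 (SE 0.37) and an adjusted p of 0.643.

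GSK4716 and DES with calcium were the groups in which MALAT1 varied least. It was 104, 98.1 and 90.9 FPKM with GSK4716 (mean 97.8 ± 6.73, SD, n = 3) and 83.7, 95.8 and 88.8 FPKM with DES and calcium (mean 89.4 ± 6.06, SD, n = 3), all within the range of the control. GSK4716 against control gave a log2 fold change of 0.16 (SE 0.22, 95% interval -0.37 to 0.69) with an adjusted p of 0.748. DES with calcium gave 0.17 (adjusted p 0.896) against DES and -0.56 (adjusted p 0.281) against calcium.

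DES with cadmium held 11.9, 226 and 52.4 FPKM of MALAT1 (mean 96.7 ± 114, SD, n = 3), the widest range of any group. On the log2 scale it gave -0.60 (SE 1.07, adjusted p 0.885) against DES and -1.02 (SE 1.01, adjusted p 0.506) against cadmium, and without replicate 1 these became 0.46 and 0.03. The interactions of DES with calcium and with cadmium were -0.42 (adjusted p 0.778) and -0.89 (adjusted p 0.737), the latter 0.17 without that library. The order of the MALAT1 means ran from calcium, cadmium, GSK4716, DES with cadmium, DES and control to DES with calcium, and every pair of neighbours overlapped.

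The ratio of NEAT1 to MALAT1 within a library does not change when all values of a library are multiplied by a common factor. It was 0.155, 0.115 and 0.222 in the control and 0.939, 0.494 and 0.739 with DES, so the groups did not overlap. The ratio of the geometric means was 4.43-fold (exact permutation test, two-sided, p = 0.1, the smallest that 3 against 3 can give, and 0.267 adjusted over 8 comparisons). With calcium the ratios were 0.624, 0.708 and 0.201, and replicate 3, where MALAT1 was highest, fell inside the control range (2.83-fold, exact p = 0.2).

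With cadmium the ratios were the lowest and tightest, at 0.0980, 0.0855 and 0.0930. They lay below all 3 controls (0.582-fold, exact permutation p = 0.1), and the 3 libraries with DES and cadmium, at 0.427, 0.224 and 0.524, lay above them (4.01-fold, exact p = 0.1), a log2 difference of 2.00 that was 1.90 without replicate 1 of DES with cadmium. DES+cadmium replicate 1, which had the least of both RNAs, was not the lowest of its group in this ratio. GSK4716 gave 0.191, 0.168 and 0.261, overlapping with the control. DES with calcium gave 0.844, 0.749 and 0.695, inside the range of DES. The lowest adjusted p of the 8 was 0.267, and groups of 3 cannot reach 0.05 in this test.

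**Figure D3:**
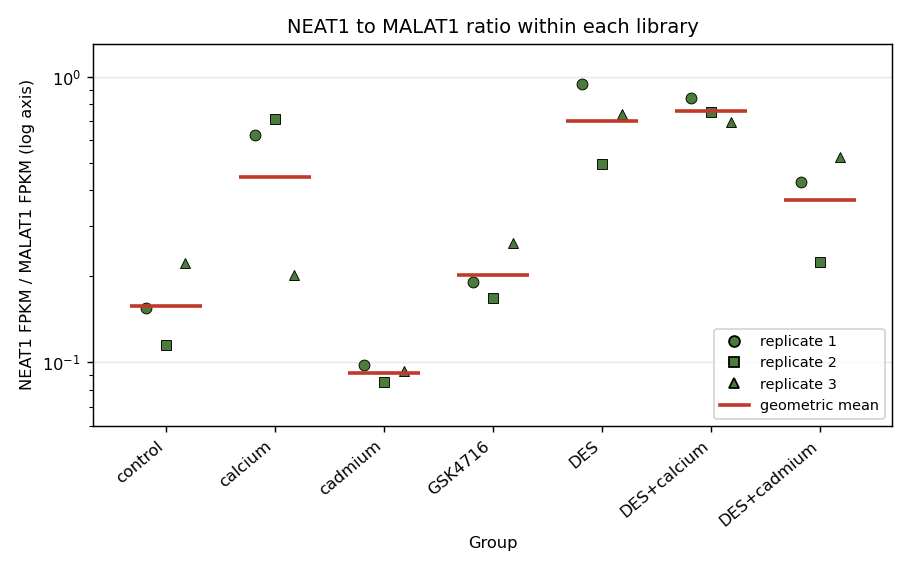
The ratio of NEAT1 FPKM to MALAT1 FPKM within each library on a log axis, by group, with a red line at the geometric mean. Cadmium libraries sit between 0.0855 and 0.0980, below the control libraries (0.115 to 0.222), and DES libraries sit between 0.494 and 0.939, above them.

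The table holds 1 row per gene, so the short and the long transcript of NEAT1 were not separated. FPKM divides by the listed length, and by that measure MALAT1 exceeded NEAT1 in 21 of 21 libraries. In fragments, without regard to length, NEAT1 exceeded MALAT1 in 10 libraries. If every NEAT1 fragment came from a short transcript of 3441 bases, a length listed in GENCODE 44, the NEAT1 values would be 6.62 times higher and above MALAT1 in 17 of 21 libraries. Comparisons of NEAT1 between groups do not change with this length, provided the share of each transcript is equal in them, which was not tested.

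None of the 32 paraspeckle proteins in the list, all of them tested, was called higher with calcium, where NEAT1 rose. In limma 2 were called lower: HNRNPF (-0.59) and HNRNPUL1 (-0.57), both RNA-binding proteins of the hnRNP family, in a comparison where 7.12% of genes were called, 4.60% higher and 2.53% lower. limma-voom called 5 of the list, all lower, and 9 had an unadjusted p under 0.05. The median of the list was -0.11, beside -0.01 over all genes. Without calcium replicate 3 1 of the 32 was called lower, and without any other of the 6 libraries none was. The core proteins NONO, SFPQ and PSPC1, which bind NEAT1 directly, had log2 fold changes of -0.25, -0.07 and 0.11 with calcium, each with an adjusted p of at least 0.248.

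With DES 5 of the 32 were called higher and 2 lower, beside 29.6% of all genes called, 16.7% higher and 12.9% lower. Those called higher included DLX3, a homeobox factor (1.90), RBM14, which is needed for paraspeckles to assemble (1.23), and HNRNPA1, a splicing repressor (1.01). HNRNPH3 (0.97) and EWSR1 (0.93) were the other two, while the RNA-binding proteins TARDBP (-1.27) and CIRBP (-0.69) fell. HNRNPA1 has many processed copies in the genome, so its counts are uncertain. The median of the list was 0.23, beside 0.05 over all genes, and with 1 library left out 2 (without control replicate 1), 3 (without control replicate 2 or DES replicate 2), 4, 6 or 9 (without DES replicate 1) were called higher. NONO (0.41, adjusted p 0.0825), PSPC1 (0.33, adjusted p 0.232) and SFPQ (-0.26, adjusted p 0.318) did not pass. NONO was 63.8, 64.4 and 75.5 FPKM in the control and 98.4, 84.5 and 87.8 FPKM with DES. All its DES values lay above all control values, an order shared by 25.9% of all genes.

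In the presence of calcium 11 of the list were called higher and 2 lower in DES with calcium against calcium, where 18.5% of genes were called higher and 16.5% lower. They included HNRNPA1 (1.54), NUDT21, a cleavage factor of poly-A site choice (1.53), and NONO (0.68), while TARDBP fell by 1.45 on the log2 scale. In the interaction of DES with calcium 1 of the 32 was called, NUDT21 (1.20), a share near the 3.63% of all genes called. In DES with cadmium against cadmium 2 were called higher, DLX3 (2.62) and HNRNPA1 (1.81), beside 4.76% of genes called higher and 5.13% lower. No paraspeckle protein was called higher there without any 1 of the cadmium libraries or without DES+cadmium replicate 3, and 1 was without replicate 1 or 2 of DES with cadmium. The list median was -0.35 with cadmium, beside 0.04 over all genes, and 6 of the 32 had a value above 0. limma called none of the 32 with cadmium (15 at an unadjusted p under 0.05), with GSK4716 (8), in DES with calcium against DES (4) or in DES with cadmium against DES (5), and limma-voom called none in these either. Without cadmium replicate 1 3 of the 32 were called lower with cadmium.

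Of the 23 nuclear speckle proteins, 7 were called higher and 0 lower with DES, beside 16.7% of all genes called higher and 12.9% lower. The largest were the SR splicing factors SRSF7 (0.96) and SRSF5 (0.88) and the export helicase DDX39B (0.79). This count depends on scaling, since with libraries scaled by total fragments 1 was called higher and 1 lower. With 1 library left out it was 1 (control replicate 1 or DES replicate 2), 2 (control replicate 2), 3 (control replicate 3), 6 or 7. The list median was 0.18 with DES, beside 0.05 over all genes, and -0.12 with calcium. SON and SRRM2, large proteins at the core of the speckle, had log2 fold changes of -0.65 (adjusted p 0.0522) and 0.02 (adjusted p 0.969) with DES. With calcium limma called 0 of the 23, with 3 at an unadjusted p under 0.05, and limma-voom called 0. SON (-0.12) and SRRM2 (-0.31) did not pass there. In DES with calcium against calcium 6 were called higher and 2 lower, SON (-0.99) among the latter, beside 18.5% and 16.5% of all genes, and 3 higher with scaling by total fragments or without replicate 1 of DES with calcium.

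Genes that process or protect the MALAT1 end, such as the subunits of RNase P, gave 2 higher and 2 lower of 13 with DES, a share near the 29.6% of all genes called. POP7 (1.35) and RPP30 (0.99), both RNase P subunits, rose, while RPP14 (-1.28) and METTL16, which binds the MALAT1 triple helix (-0.83), fell. None was called lower when any of the 3 control libraries was left out and 1 without DES replicate 2 or 3, while 1 was called higher without control replicate 1 or DES replicate 2. With calcium limma called 0 of the 13 (1 at an unadjusted p under 0.05, and 0 by limma-voom). The list median was 0.18 with DES and -0.19 with calcium. In DES with calcium against calcium RPP30 (1.62), RPP40 (1.57) and POP7 (1.54) rose, and METTL16 (-1.10) and RPP14 (-0.89) fell, beside 18.5% of all genes called higher and 16.5% lower. With any of the 6 libraries left out 0 (calcium replicate 1) or 1 of the 13 was called lower and 3 or 4 were called higher. MALAT1 itself was not called in any of these comparisons.

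Of 9 tested transcription factors known to act at the NEAT1 gene, 1 was called higher and 3 lower with DES. Of all genes 16.7% were called higher and 12.9% lower there. HSF1, the master factor of the heat shock response, rose with DES (0.60). BRCA1, a DNA repair protein, fell (-1.62), as did the hypoxia factor EPAS1 (-0.70). With calcium 1 of the 9 was called, BRCA1 (-2.14), beside 2.53% of all genes called lower. No factor was called higher with DES without control replicate 1, control replicate 2 or DES replicate 2 or with scaling by total fragments, and none was called with calcium when any library but control replicate 3 was left out. In DES with calcium against calcium 1 was called higher, ATF2 (1.34), and 1 lower, beside 18.5% and 16.5% of all genes. No factor was called higher there with scaling by total fragments or when any library but calcium replicate 3 was left out. ESR1 was below the filter on low values, with group means of at most 0.0578 FPKM. The marker genes moved as well: KRT8 (1.79) and KRT18 (1.65) rose with calcium, and FOXA1 (-1.17) and GATA3 (-1.11) fell with DES. Whether these changes have a part in those of NEAT1 was not tested.

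Of 15 other nuclear lncRNAs, 6 passed the filter on low values. With calcium limma called 0 of the 6 (1 at an unadjusted p under 0.05, and 0 by limma-voom). With DES PVT1, an lncRNA beside MYC, rose (2.35), from a mean of 2.50 FPKM in the control to 13.4 FPKM. FTX (-1.69), OIP5-AS1 (-1.33) and TUG1 (-1.30) fell, beside 12.9% of all genes called lower. Without control replicate 1 or control replicate 2 only 1 of the 6 was called lower, and without DES replicate 1 2 were called higher. The list median was -0.41 with DES and 0.20 with calcium. In DES with calcium against calcium PVT1 rose (1.40) and 4 fell, FTX most (-2.20), beside 16.5% of all genes called lower. Of these lncRNAs 2 were called lower without calcium replicate 1 or 3 or without replicate 1 or 2 of DES with calcium.

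In DES with cadmium against cadmium 4.76% of all genes were called higher and 5.13% lower. Of the 23 speckle proteins 1 was called lower, SON (-1.34). Of the 13 end-processing genes 2 were called lower, RPP21 (-2.13) and RPP14 (-1.78). Of the 6 lncRNAs FTX (-3.41) and OIP5-AS1 (-1.42) were called lower and PVT1 (1.92) higher. Of the 9 transcription factors 1 was called higher, HSF1 (1.05), and 2 lower, EPAS1 (-1.14) among them. Neither PVT1 nor HSF1 was called when any 1 of the 6 libraries was left out, and 0 to 3 genes of each list were then called lower. In the other 4 comparisons between groups, those of cadmium and GSK4716 with control and of the DES combinations with DES, limma and limma-voom called no gene of these 4 lists. Between 0 and 5 genes of a list had an unadjusted p under 0.05 there.

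**Figure D4:**
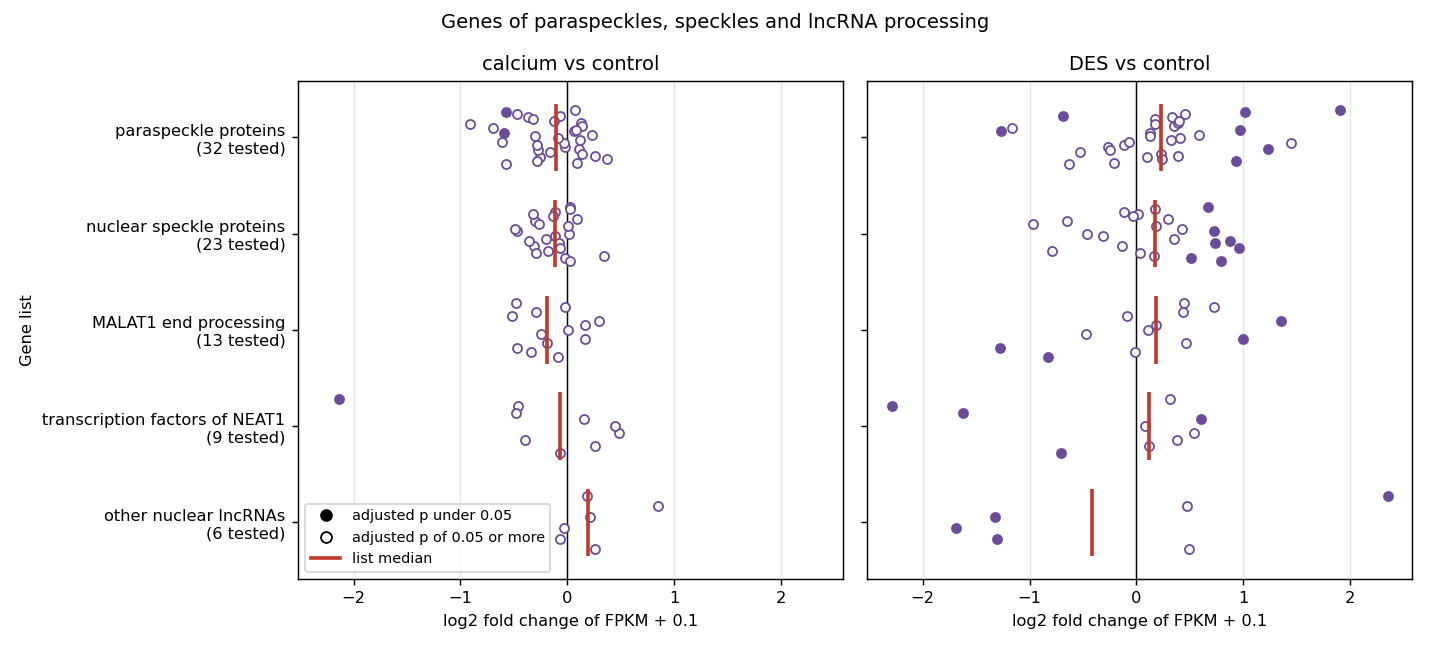
The log2 fold change of every tested gene in 5 lists with calcium (left) and DES (right) against control, filled where the adjusted p was under 0.05, with a red line at the list median. The paraspeckle list has a median of -0.11 with calcium and 0.23 with DES.

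The neighbourhood of the pair held 26 other listed genes within 100 kb of either, of which 12 were tested. With calcium 2 were called higher, beside 4.60% of all genes. AP000769.1, a transcribed pseudogene between NEAT1 and MALAT1, had 6, 2 and 4 fragments in the control and 24, 36 and 35 with calcium, a log2 fold change of 2.29 (adjusted p 0.0208). All calcium libraries lay above all controls, an order shared by 16.0% of the genes tested, but the values are small. FAM89B was 3.86, 4.03 and 3.90 FPKM in the control and 6.33, 7.77 and 8.21 FPKM with calcium (0.89, adjusted p 0.0258). It overlaps SSSCA1 on the same strand, so fragments of the overlap may be split between them. With calcium replicate 1 or 3 left out both were called, without control replicate 3 1 was, and without control replicate 1, control replicate 2 or calcium replicate 2 neither was.

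With DES 6 of the 12 were called higher and 2 lower, beside 16.7% and 12.9% of all genes. AP000769.1 (2.41) and SSSCA1 (1.51) changed most, then SSSCA1-AS1 (1.21), FAM89B (1.02), DPF2, a subunit of the BAF chromatin complexes (1.01), and LTBP3, which binds latent TGF-beta (0.62). MAP3K11 (-0.96) and FRMD8 (-0.75), the gene just upstream of NEAT1, fell. TIGD3 (-1.27), SLC25A45 (-0.52) and EHBP1L1 (-0.47) did not pass, and neither did MALAT1. With a library left out 5 or 6 were called higher. None was called lower without control replicate 1, control replicate 3 or DES replicate 2, 1 was without control replicate 2, and 3 and 4 were without DES replicates 1 and 3. AP000769.1 also had 17, 49 and 96 fragments with cadmium, above all controls, an order that 17.7% of genes shared (log2 fold change 2.90, adjusted p 0.0778). In the interaction of DES with calcium AP000769.1 (-3.07) and FAM89B (-1.14) were called lower, beside 2.38% of all genes. Neither was called without control replicate 1 or 2, calcium replicate 2, DES replicate 2 or DES+calcium replicate 1, and 1 of the locus was without replicate 3 of any of the 4 groups. In the interaction of DES with cadmium SSSCA1-AS1 was called lower (-2.85, adjusted p 0.0140), beside 0.940% of all genes, and no locus gene was without control replicate 2 or DES replicate 2. Of the small RNA rows in and at the end of the pair, the tRNA-like element of NEAT1 held 2 fragments in all libraries together. That of MALAT1 and MIR612 held 0, but both lie inside a listed gene of the pair on the same strand. How fragments in such overlaps were counted is not stated, so these values of 0 may come from the counting.

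**Figure D5:**
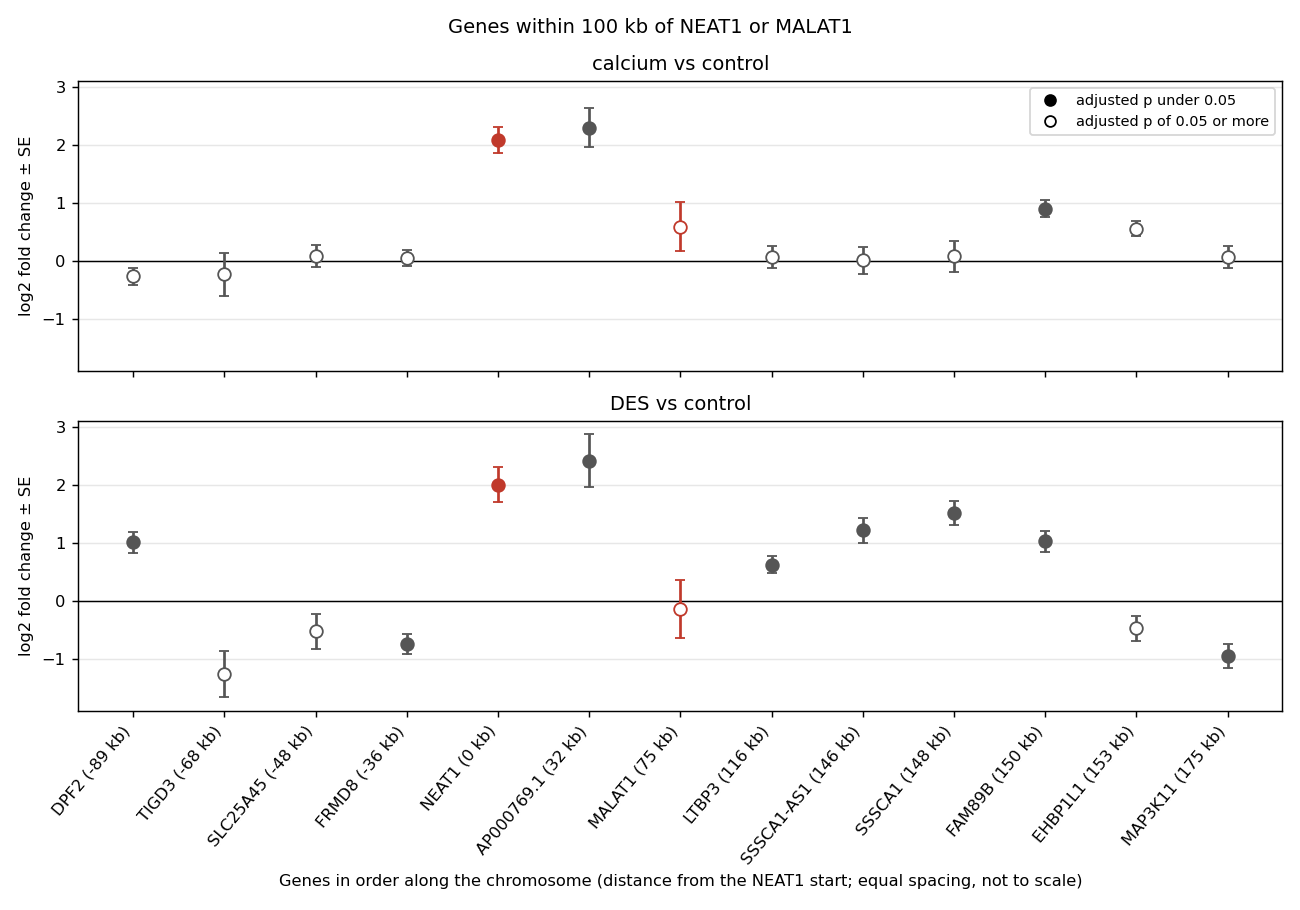
The log2 fold change ± SE of tested genes within 100 kb of NEAT1 or MALAT1 (both red), in chromosome order, with calcium (top) and DES (bottom) against control, filled where the adjusted p was under 0.05. NEAT1 and AP000769.1 are filled in both panels, and MALAT1 in neither.

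Across the 21 libraries, the genes whose log2(FPKM + 0.1) followed NEAT1 most closely, by Pearson's r, were AC004765.1 (0.928), AC098829.1 (0.878), HNRNPH3 (0.877), PTP4A1 (0.869) and TSC22D2 (0.856). The first 2 are antisense transcripts, uncertain where strand was not kept, and AC004765.1 had at most 44 fragments in a library. HNRNPH3, a paraspeckle protein, was 10.6 to 13.5 FPKM in the control and 18.1 to 31.8 FPKM with DES. With calcium its change did not pass.

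For MALAT1 the 5 were ARFGEF1 (0.886), ITSN2 (0.885), NKTR (0.879), THAP9-AS1 (0.877) and OTUD4 (0.875). Without replicate 1 of DES with cadmium the r of these 5 fell to between 0.727 and 0.861, and 2 of the 5 stayed among the closest. For NEAT1 the r of its 5 genes was then 0.818 to 0.912, and 2 of the 5 stayed as well. NEAT1 and MALAT1 had an r of 0.446 with each other (Spearman's rho 0.309), and 0.200 without that library. MALAT1 was 1861st of 14685 genes in likeness to NEAT1. These values describe libraries that share groups and depth, and they carry no test.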

How the data were processed

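Poly-A-captured RNA of 21 libraries was analysed from the deposited FPKM values, which the authors made per gene and library on GRCh38. The submitters' processing notes name HISAT2 2.0.5, featureCounts 1.5.0-p3 and GRCh38.p14. Whether libraries kept the strand is stated both ways. FPKM times gene length gave whole fragments for 100% of values (tolerance 0.01). No pair of libraries shared equal fragments in more than 4.97% of genes.

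limma 3.58.1 (lmFit, eBayes with a trend; R 4.3.3) was run on log2(FPKM + 0.1) over 14686 genes whose mean over all libraries reached 0.5 FPKM. Only the groups compared entered a fit. P-values are two-sided, with Benjamini-Hochberg adjustment over all genes tested and a threshold of 0.05. A fold change on this scale understates that of low genes. The steps were tested on simulated data. Ratios were tested by exact permutation in scipy 1.17.1. Lists are described by counts and medians. Of the 2 rows named MATR3, in the paraspeckle list, only 1 entered, with group means of 0.353 to 1.97 FPKM. Genes named are the members, list genes called (the 3 largest in each direction) with NONO, SFPQ, PSPC1, SON and SRRM2, tested genes within 100 kb, and the 5 most alike. EWSR1, KRT8, KRT18, FOXA1 and GATA3 were chosen after their values were seen.

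Some genes of the lists and the locus are not reported here by name. The members and lists were chosen with earlier results of these data known. Whether equal replicate numbers pair libraries was checked from correlations of their deviations from group means. These were 0.132, 0.103 and 0.280 in DES with calcium versus DES and 0.472, 0.121 and 0.313 in DES with cadmium versus DES. In each other comparison at least 1 was under 0.1. Alternatives were a pseudocount of 1, no filter, a filter at 2 FPKM, median-ratio, total-fragment and quantile scaling, all 7 groups in a fit, arrayWeights, a replicate block, limma-voom and each library left out. List counts under these, and likeness without 1 library, were added after seeing the data.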

Additional observations from a re-analysis of the deposited data

Results flagged for a closer look

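The effect of calcium on NEAT1 differed with and without DES. The log2 fold change was 2.08 without DES and 0.29 with it, and the interaction term in limma was -1.79 (adjusted p = 0.0342, 3 libraries in each of 4 groups). The 3 calcium libraries lay above all controls, while the groups with DES overlapped. This result keeps its sign under each setting tried but depends on single libraries for its call.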

How the results depend on the processing

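Of the values of NEAT1, MALAT1 and their ratio under settings other than leaving out a library, 216 kept direction and call, 6 reversed, 2 gained a call and 4 lost it. Without the filter on low values, which raises the number of genes tested, NEAT1 lost its call with calcium (2.08, adjusted p 0.0821), with DES (2.00, adjusted p 0.0555) and in the interaction of DES with calcium (-1.79, adjusted p 0.190), which it also lost with all 7 groups in a fit (-1.79, adjusted p 0.285). With arrayWeights NEAT1 was called with cadmium (-1.05) and in DES with cadmium against cadmium (1.93), and reversals were MALAT1 with cadmium (-0.24), MALAT1 with DES (0.52), and in DES with calcium against DES NEAT1 (-0.04) and MALAT1 (-0.58). With quantile normalization MALAT1 in DES with calcium against DES (-0.05) and NEAT1 in DES with calcium against calcium (-0.16) reversed. The cause was not tested.

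With 1 library left out, NEAT1 ranged from 1.84 to 2.22 with calcium, from -2.15 to -1.55 in the interaction of DES with calcium and from -0.07 to 0.49 in DES with calcium against DES. MALAT1 ranged from -0.59 to 0.43 with DES, -0.08 to 0.50 with cadmium, -0.08 to 0.32 with GSK4716, -0.40 to 0.62 in DES with calcium against DES, -1.66 to 0.46 in DES with cadmium against DES, -2.08 to 0.03 in DES with cadmium against cadmium, -0.99 to 0.03 in the interaction with calcium and -1.94 to 0.17 in that with cadmium. The log2 ratio of NEAT1 to MALAT1 ranged from -0.13 to 0.33 in DES with calcium against DES.

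The replicate block, used where numbers pair libraries, changed no call of NEAT1 or MALAT1: NEAT1 was 0.29 (adjusted p 0.615) in DES with calcium against DES and -1.52 (adjusted p 0.217) in DES with cadmium against DES, with 0 genes called in each (2448 and 2543 at an unadjusted p under 0.05) against 20 and 39. Elsewhere limma with the block called 260 against 1046 genes with calcium, 3 against 22 with cadmium, 291 against 173 in the interaction with cadmium and 0 against 1453 in DES with cadmium against cadmium (4682 at an unadjusted p under 0.05).

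Over all settings but those leaving out a library, genes called ranged from 30 to 2270 with calcium, 3 to 8325 with cadmium, 0 to 846 with GSK4716, 1715 to 10334 with DES, 0 to 718 in DES with calcium against DES, 0 to 1976 in DES with cadmium against DES, 1006 to 5859 in DES with calcium against calcium, 0 to 8241 in DES with cadmium against cadmium, and 84 to 2624 and 42 to 6358 in the interactions with calcium and cadmium. With a library left out they ranged from 7 (control replicate 1) to 758 with calcium, 1 to 1605 (cadmium replicate 1) with cadmium, 0 to 1 with GSK4716, 1930 (control replicate 1) to 5078 with DES, 0 to 41 and 0 to 96 in DES with calcium and with cadmium against DES, 3263 to 4260 in DES with calcium against calcium, 0 (cadmium replicate 1) to 1052 in DES with cadmium against cadmium, and 181 to 830 and 15 to 410 in the interactions. The shares of all genes called in the report move with these counts. The median log2 fold change of all genes in DES with cadmium against cadmium, where scaling by total fragments moved it most, was -0.08 and became -0.39. With 3 libraries a group, the spread between libraries and not depth limits NEAT1 and MALAT1.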
